A study of Mus musculus with 12 samples.

Results

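The genes described here encode the nuclear part of the mitochondrial respiratory chain and its ATP synthase. They are the 97 protein-coding genes, of 52654 genes counted in every library, whose symbols start with Nduf, Uqc, Cox4 to Cox8 or Atp5, together with Sdha, Sdhb, Sdhc, Sdhd and Cycs. The rule reads names and no measured value, but it was chosen with earlier results of these data known. They hold 36 subunits and 8 assembly factors of complex I, the 4 subunits of complex II, 8 subunits and 3 assembly factors of complex III, 20 genes of complex IV, 17 genes of complex V, and cytochrome c. Ndufa4 and its relative Ndufa4l2 carry a complex I name but were counted with complex IV, where the Ndufa4 protein resides.

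RNA was sequenced from MC3T3-E1 subclone 14, a mouse preosteoblast line from calvaria that is 1 clone, after 7 days on titanium discs. There were 4 groups of 3 libraries: co-culture on nanotopography, co-culture on control titanium, isolated cells on nanotopography, and isolated cells on control titanium. In the co-culture groups, inserts with 0.4 µm pores carried osteoclasts derived from RAW 264.7, a mouse macrophage line, and stood over the osteoblasts for the last 2 days, after 5 days of separate culture. The isolated groups never met RAW 264.7 cells. All 4 groups had osteogenic medium, in which ascorbic acid was at 5 µg/mL and β-glycerophosphate at 7 mM. RANKL, the cytokine that drives osteoclast formation, was recorded at 50 ng/mL for the co-cultures only, as were the inserts, so effects of the osteoclasts, of RANKL and of the insert cannot be told apart. The design text calls the triplicates biological, and p-values measure the spread between these libraries.

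Complex I takes electrons from NADH and complex II takes them from succinate. Complex III passes them to cytochrome c and complex IV to oxygen, while complexes I, III and IV pump protons that drive ATP synthesis by complex V. Mitochondrial DNA encodes a few core subunits, and all other subunits come from nuclear genes and are imported. In osteoblasts, respiration and glycolysis both supply ATP for matrix production.

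Libraries held 5866842 to 9207831 counts. Levels are given as CPM, the count of a gene scaled to a common library size with trimmed-mean (TMM) factors. Because samples are bulk RNA, fewer cells of a type and less RNA per cell cannot be told apart. The share of counts on the 97 genes averaged 0.368 ± 0.0523% in co-culture on nanotopography, 0.484 ± 0.0371% in control co-culture, 0.567 ± 0.0347% in isolated cells on nanotopography and 0.457 ± 0.0407% in isolated cells on control (SD, n = 3 each). The 2 mitochondrial ribosomal RNAs took 11.6 ± 3.75%, 6.49 ± 0.304%, 5.14 ± 1.05% and 8.17 ± 1.55% of counts in the same 4 groups. Co-culture nanotopography replicate 1 stood apart from its group, with 15.8% of its counts on those ribosomal RNAs against 8.66% and 10.2% in the other 2 libraries. Gm26917 and Gm42418, tallied apart as further ribosomal RNA, took 0.636 ± 0.248%, 1.84 ± 0.289%, 6.27 ± 2.38% and 3.81 ± 1.44% of counts in the same order of groups. Fold changes that involve nanotopography also ran with the GC content of transcripts, so a second fit, called GC-adjusted here, removed a smooth curve over GC content and transcript length in each library. Osteoblast markers were abundant, Col1a1 at 23435 ± 3031, 39318 ± 4370.5, 45248 ± 775 and 44692 ± 3989.9 CPM in the same order of groups. Of 17 macrophage and osteoclast markers, summed to 286 to 341 CPM in co-culture on nanotopography, 299 to 306 CPM in control co-culture, 239 to 258 CPM in isolated cells on nanotopography and 239 to 245 CPM in isolated cells on control, Ctsk and Itgb3 made up most of the sum in all groups. Ptprc, the pan-leukocyte antigen, had 2.03 ± 0.669 CPM in co-culture on nanotopography, 0.1 ± 0.174 CPM in control co-culture and no count in isolated cells, and the osteoclast gene Calcr had no count in any library. Of the 7 markers high enough to test, 5 were higher and 1 lower in co-culture on nanotopography, and 1 was higher in control co-culture. Within co-culture, 4 were higher on nanotopography. Each count is against its own comparison group. Of all tested genes, 28.7%, 10.9% and 18.6% were higher in those comparisons, in that order. The median log2 fold change of the 7 markers was 1.71 in co-culture on nanotopography, with a range of -0.52 to 7.60. In control co-culture the median was 0.02, with a range of -0.44 to 4.21. After GC adjustment the median in co-culture on nanotopography was 2.07. The part of these markers, or of the ribosomal RNA share, in the results below was not tested.

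Transcript levels within the chain spanned a wide range. Per kilobase of transcript, Atp5b, which encodes the catalytic beta subunit of complex V, had the highest level of all members, 506 CPM per kb averaged over the 4 groups. Atp5a1, its F1 partner alpha, stood at 206 CPM per kb, Cox4i1, the common isoform of complex IV subunit 4, at 156 and Ndufv2, a core subunit of the NADH module of complex I, at 155. The median was 24.8 CPM per kb over the 44 complex I genes, 32.5 over complex II, 32.9 over complex III, 36.2 over the 13 tested complex IV genes and 35.5 over complex V. Cycs, somatic cytochrome c, was low, at 2.25 CPM per kb. There are 3 genes that encode the same mature c-ring protein, and among them Atp5g3 led at 46.7 CPM per kb, above Atp5g2 at 2.73 and Atp5g1 at 2.07. Of the CPM on gene and near-identical pseudogenes together, pseudogenes held 45.5% for Atp5g2 and 48.7% for Atp5g1, while Atp5g3 had no match. Cycs matched 3 pseudogenes, which held 0.79%. Whether reads shared with such copies were lost from these genes was not tested, so their levels are uncertain.

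Of the paired isoforms of complex IV, the common forms were measured and the tissue-specific forms were at or near 0. The common forms Cox4i1, Cox6a1, Cox6b1, Cox7a2 and Cox8a were all tested, whereas 7 genes were too low to test: Cox4i2 (the oxygen-regulated form of subunit 4), Cox6a2, Cox7a1 and Cox8b (heart and muscle forms) and Cox6b2, Cox7b2 and Cox8c (testis forms). Cox7b2 and Cox8c had no count in any library, and a count of 3, the upper limit that a 0 allows, would be 0.14, 0.13, 0.159 and 0.137 CPM over the groups, in the order used above. Cox4i2 reached 2, 12, 14 and 12 counts over the 3 libraries of each group and Cox6a2 reached 14, 14, 7 and 6. This limit covers counting error only.

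Promoters were available from RefSeq for 78 of the 97 members, as windows of 300 bases from 250 before to 50 after each annotated start on build GRCm38.p6. Some genes had more than 1 window, and a match in any of them counted for the gene. Factors named for nuclear control of respiration bind such regions, NRF1 at a palindrome and the ETS factor GABP at a short core. The NRF1 sequence, GCGCA followed directly by its reverse complement, stood in windows of 7 of the 78 members (8.97%), against 1.07% of 27025 genes with windows of that length. The ETS core CCGGAAG stood, on either strand, in 18 of 78 (23.1%) against 9.93%, and the CCAAT box in 36 of 78 (46.2%) against 41.1%. Both strands were searched and no overlap between motifs was removed. Among tested members with an NRF1 match, 4 of 7 were lower in co-culture on nanotopography, as were 41 of 67 with none and 30.4% of all tested genes, by the test described with the first comparison. A match is a description of letters and not a bound site. Windows of 4 members described below are shown because they hold such matches and changed in different ways: Cox6a1 (chr5:115348909-115349208, minus strand) was lower in both co-culture comparisons, Uqcrc1 (chr9:108936398-108936697, plus strand) and Sdhb (chr4:140961021-140961320, plus strand) were lower in co-culture on nanotopography, and Ndufaf4 (chr4:24897833-24898132, plus strand) was the 1 member called higher there. Capitals mark NRF1 and ETS matches.
Cox6a1: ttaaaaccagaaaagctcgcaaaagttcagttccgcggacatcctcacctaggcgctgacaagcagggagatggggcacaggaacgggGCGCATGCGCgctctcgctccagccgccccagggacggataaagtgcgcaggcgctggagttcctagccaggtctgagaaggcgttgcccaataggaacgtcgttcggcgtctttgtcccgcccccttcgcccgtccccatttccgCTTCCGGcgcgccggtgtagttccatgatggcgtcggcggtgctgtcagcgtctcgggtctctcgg
Uqcrc1: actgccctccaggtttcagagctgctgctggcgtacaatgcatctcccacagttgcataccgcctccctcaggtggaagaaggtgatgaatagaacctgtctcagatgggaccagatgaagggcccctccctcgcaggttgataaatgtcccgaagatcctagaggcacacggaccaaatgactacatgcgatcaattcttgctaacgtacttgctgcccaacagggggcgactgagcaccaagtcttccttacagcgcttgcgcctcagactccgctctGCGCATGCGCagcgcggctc
Sdhb: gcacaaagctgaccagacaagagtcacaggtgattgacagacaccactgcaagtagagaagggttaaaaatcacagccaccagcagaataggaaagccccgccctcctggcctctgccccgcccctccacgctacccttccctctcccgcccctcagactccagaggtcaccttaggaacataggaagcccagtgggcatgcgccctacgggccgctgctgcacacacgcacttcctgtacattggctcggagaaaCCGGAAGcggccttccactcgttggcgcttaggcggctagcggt
Ndufaf4: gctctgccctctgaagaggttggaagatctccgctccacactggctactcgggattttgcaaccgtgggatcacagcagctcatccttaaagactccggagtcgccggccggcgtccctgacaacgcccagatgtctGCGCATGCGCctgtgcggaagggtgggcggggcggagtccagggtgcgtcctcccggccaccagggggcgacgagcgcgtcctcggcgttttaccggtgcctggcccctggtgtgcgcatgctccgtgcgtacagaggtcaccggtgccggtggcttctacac

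The first comparison asked what co-culture with osteoclasts did to osteoblasts on nanotopography. Most of the respiratory chain was lower. Of 90 tested members, 54 were lower and 1 was higher at an adjusted p under 0.05 (edgeR, adjusted by Benjamini-Hochberg over all tested genes), and the median log2 fold change was -0.65, against 0.00 over all 13340 tested genes. Lower calls took 60% of members and 30.4% of all tested genes, and higher calls took 28.7% of all tested genes (59.2% in either direction). After GC adjustment 43 members were lower and 1 was higher, with a median of -0.38, against 20.3% of all tested genes lower and 18.7% higher (39% in either direction), and 36 of the 54 stayed lower. The 1 higher gene after adjustment was Ndufb5, an accessory subunit of complex I (0.32, GC-adjusted 0.40), not the 1 called before it. Without co-culture nanotopography replicate 1, the library with the high mitochondrial ribosomal RNA share, 49 were lower and 1 higher as deposited. SE below is the standard error of the log2 fold change.

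In complex I, 24 of 36 subunits were lower (66.7%, against 75% of complex III subunits and 69.2% of tested complex IV genes), with a median log2 fold change of -0.83 (19 of 36 after GC adjustment). The lowest was Ndufa12, an accessory subunit on the matrix arm, with 5.68, 5.85 and 8.37 CPM in the 3 co-culture libraries on nanotopography and 34.5, 43.7 and 49.3 CPM in isolated cells on nanotopography. All co-culture libraries lay far below all isolated ones (log2 fold change -2.69, SE 0.18, adjusted p = 1.18e-08, GC-adjusted -2.38). A pseudogene with near-identical sequence had 19.4 ± 1.61 CPM in co-culture and 34.3 ± 2.25 CPM in isolated cells on nanotopography, and with its counts added the log2 fold change was -1.56. Among the core subunits, Ndufs7, an iron-sulfur protein near the ubiquinone site, had 11.6, 20.4 and 21.3 CPM in co-culture, against 67.6, 52.2 and 68.1 CPM in isolated cells (log2 fold change -1.81, SE 0.20, adjusted p = 1.27e-06, GC-adjusted -0.57). Its neighbour Ndufs8 was also lower (-1.71, GC-adjusted -0.85). Ndufs3 and Ndufv1, the flavoprotein that takes electrons from NADH, were lower at -0.85 and -0.93, but lost the call after GC adjustment, at -0.31 and -0.19. Core subunits without a call were Ndufs1 at 0.26 and Ndufv2 at -0.04, of which Ndufv2 was called lower after GC adjustment (-0.46, adjusted p = 0.00129).

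Of the 8 complex I assembly factors, 2 were lower and 1 was higher. Lower calls took 25% of them and 30.4% of all tested genes, and calls in either direction 37.5% and 59.2%, so both shares lay below those of all tested genes. Ndufaf8 fell to 1.4 ± 0.51 CPM in co-culture, against 6.12 ± 1.71 CPM in isolated cells on nanotopography (SD, n = 3 each; log2 fold change -2.12), and Ndufaf3 had a log2 fold change of -1.06. Neither call was kept after GC adjustment (-0.91 and -0.34). Ndufaf4 had 19.9, 14.4 and 18 CPM in co-culture and 12, 12.4 and 11.2 CPM in isolated cells (log2 fold change 0.55, SE 0.19, adjusted p = 0.0196), with no overlap. Its sign turned after GC adjustment, to -0.45, and its call was lost without co-culture nanotopography replicate 1 (0.44, adjusted p = 0.0878) or isolated nanotopography replicate 3 (0.50, adjusted p = 0.0679).

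In complex II, 2 of the 4 subunits were lower. Sdhb, the iron-sulfur subunit, had 19.3, 25.7 and 22.1 CPM in co-culture and 63.5, 48.8 and 63.6 CPM in isolated cells on nanotopography. The groups did not overlap (log2 fold change -1.39, SE 0.15, adjusted p = 8.39e-07, GC-adjusted -0.74). Sdhc, 1 of the 2 membrane anchors, was also lower (-0.93, GC-adjusted -0.74). The flavoprotein Sdha was not called, with 87.1 ± 6.98 CPM in co-culture and 97.5 ± 7.14 CPM in isolated cells (-0.16), although it was called after GC adjustment (-0.30, adjusted p = 0.00997). The other anchor, Sdhd, had 36.3 ± 3.72 and 36.4 ± 1.88 CPM in those groups and a log2 fold change of 0.00.

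In complex III, 6 of 8 subunits and 2 of 3 assembly factors, Uqcc2 and Uqcc3, were lower (4 of the 8 subunits after GC adjustment). Uqcrq, a small subunit, had 4.11, 7.63 and 6.24 CPM in co-culture and 37.6, 34.1 and 42.5 CPM in isolated cells on nanotopography (log2 fold change -2.65, SE 0.19, adjusted p = 2.28e-08, GC-adjusted -2.19). Together with Ndufa12 it was at the low end of all 90 members both before and after adjustment. Uqcrc1, core protein 1, was lower (43.5 ± 10.2 CPM in co-culture, 126 ± 19.9 CPM in isolated cells; -1.52, GC-adjusted -0.65). Its partner Uqcrc2 was not, at 66.3 ± 9.98 CPM in co-culture and 53.3 ± 6.48 CPM in isolated cells (0.32, adjusted p = 0.0502). The Rieske iron-sulfur protein gene Uqcrfs1 was lower by a small margin with overlapping libraries (log2 fold change -0.37, SE 0.14, adjusted p = 0.0369), and that call was lost without co-culture control replicate 1 (-0.34), co-culture control replicate 2 (-0.34), co-culture control replicate 3 (-0.35), co-culture nanotopography replicate 1 (-0.39), co-culture nanotopography replicate 3 (-0.26), isolated nanotopography replicate 1 (-0.33) or isolated nanotopography replicate 3 (-0.28). Cycs was not called (0.16), but was after GC adjustment (-0.68, adjusted p = 0.0364).

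Complex IV had 9 of 13 tested genes lower (6 after GC adjustment). Cox6a1 had 7.09, 8.91 and 7 CPM in co-culture and 34.9, 29.7 and 41 CPM in isolated cells on nanotopography (log2 fold change -2.19, SE 0.19, adjusted p = 1.35e-07, GC-adjusted -1.01). All isolated libraries lay well above all co-culture libraries. Cox8a and Cox5b were lower too, at -1.53 and -1.66 (GC-adjusted -0.36 and -1.20). Cox4i1 had 54.5, 96.8 and 69.7 CPM in co-culture and 175, 132 and 149.7 CPM in isolated cells (log2 fold change -1.04, SE 0.18, adjusted p = 0.00013). That difference shrank to -0.02 after GC adjustment (adjusted p = 0.919). Ndufa4l2, known as a hypoxia-induced gene, was lower at -1.56, without a call after adjustment (-0.40). Ndufa4 was lower at -0.64 (GC-adjusted -0.89), a call lost without co-culture nanotopography replicate 2 (-0.66), co-culture nanotopography replicate 3 (-0.54) or isolated nanotopography replicate 2 (-0.47). Cox7a2l, a factor that joins complexes III and IV into supercomplexes, was lower at -0.41, a call lost after GC adjustment (-0.29, adjusted p = 0.0724) and without co-culture nanotopography replicate 1 (-0.27), co-culture nanotopography replicate 3 (-0.39) or isolated nanotopography replicate 1 (-0.38). Cox6b1 and Cox7a2 were not called (-0.27 and -0.33).

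Complex V had 9 of 17 genes lower (7 after GC adjustment). Atp5d, the F1 delta subunit, had 18.4, 33.6 and 30.1 CPM in co-culture and 93.9, 73.9 and 108 CPM in isolated cells on nanotopography (log2 fold change -1.74, SE 0.20, adjusted p = 2.6e-06, GC-adjusted -0.46). Atp5b, the most abundant member, had 639, 873 and 665 CPM and 1329.8, 1046 and 1313 CPM in those groups, again without overlap (log2 fold change -0.76, SE 0.15, adjusted p = 0.000364, GC-adjusted -0.54). Atp5a1 and Atp5c1, the alpha and gamma subunits of F1, were lower at -0.65 and -0.60. Of the c-ring genes, Atp5g3 (-1.09, GC-adjusted -0.83) and Atp5g1 (-0.96, GC-adjusted -0.81) were lower, whereas Atp5g2, near the detection limit at 1.74 ± 0.227 and 1.69 ± 0.754 CPM, was not called.

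**Figure D1:**
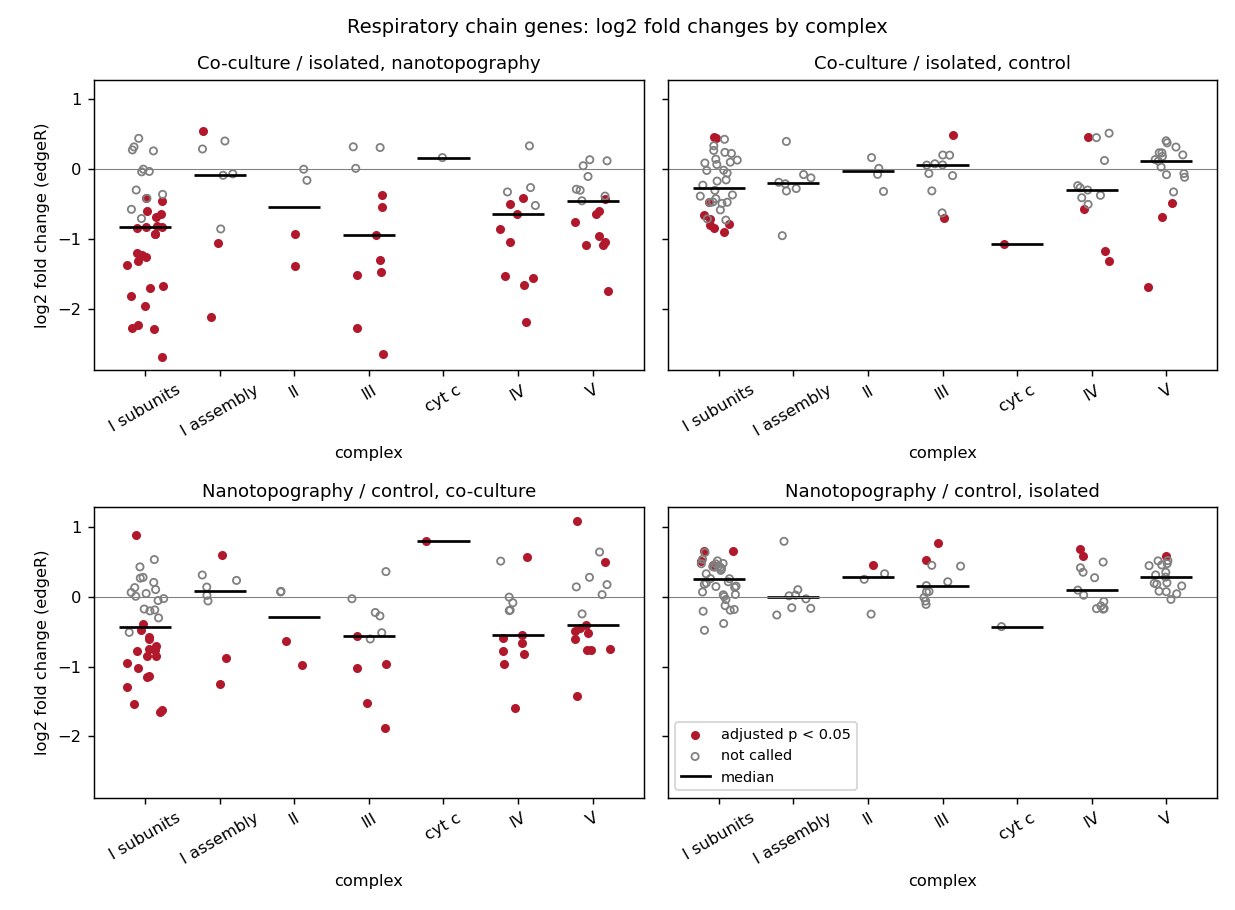
Each point is 1 tested respiratory chain gene, with complex on the horizontal axis (III holds subunits and assembly factors) and the edgeR log2 fold change on the vertical axis, in 4 comparisons. Filled red points have an adjusted p under 0.05, open points do not, and bars are medians, which are -0.83 for complex I subunits in co-culture on nanotopography and 0.26 for the same genes on nanotopography in isolated cells.

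On control titanium most members of the chain were not called in either direction. Of 90 tested members, 4 were higher and 15 were lower in co-culture than in isolated cells, and the median log2 fold change was -0.12, against -0.02 over all tested genes. Higher calls took 10.9% of all tested genes and lower calls 8.72% (19.7% in either direction), so lower members, at 16.7%, stood above that background. After GC adjustment 13 members were higher and 20 lower, against 14.4% and 12.4% of all tested genes (26.8% in either direction). Complex I had 7 lower and 2 higher of 36 subunits, complex III 1 lower and 1 higher of 8, complex IV 3 lower and 1 higher of 13, and complex V 3 lower of 17.

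The low end was made up of Atp5k, Ndufa4, Cox6a1 and Cycs. Atp5k, a small membrane subunit (e) of complex V, had 1.84, 1.82 and 2.71 CPM in control co-culture and 7.44, 8.86 and 3.53 CPM in isolated cells on control (log2 fold change -1.68, SE 0.34, adjusted p = 0.00208, GC-adjusted -1.62). Ndufa4 had 3.89, 5.59 and 6.63 CPM and 15.5, 15.3 and 8.41 CPM in those groups (log2 fold change -1.32, SE 0.24, adjusted p = 0.00111). In both genes isolated control replicate 3 was the lowest isolated library, still above co-culture. Cox6a1 had 8.87, 12.6 and 15.5 CPM in co-culture and 26.5, 27.1 and 29.3 CPM in isolated cells on control, without overlap (log2 fold change -1.18, SE 0.18, adjusted p = 0.000217, GC-adjusted -1.09). Ndufa5, an accessory subunit of the complex I matrix arm, was lower at -0.90 (20.6 ± 1.58 CPM in co-culture, 38.2 ± 9.94 CPM in isolated cells), and Uqcrq at -0.70 (22.4 ± 3.94 and 36.3 ± 3.78 CPM). Cox6a1, Ndufa4, Ndufa5, Uqcrq and Atp5k kept their calls with any 1 library left out. Cycs fell by 1.07 on the log2 scale, with 3.14, 5.31 and 4.97 CPM in co-culture and 12.5, 8.98 and 5.89 CPM in isolated cells, a call lost without co-culture control replicate 1 (-0.83, adjusted p = 0.0599) or isolated control replicate 1 (-0.77, adjusted p = 0.0732). Cox5b, Atp5j (peripheral stalk) and Atp5g3 were lower at -0.58, -0.69 and -0.49. Those calls were lost without co-culture control replicate 1 (-0.55), co-culture control replicate 2 (-0.55) or isolated control replicate 3 (-0.46) for Cox5b, without co-culture control replicate 1 (-0.56), co-culture control replicate 2 (-0.61), isolated control replicate 1 (-0.59) or isolated control replicate 2 (-0.65) for Atp5j and without co-culture control replicate 1 (-0.46), co-culture control replicate 2 (-0.51), co-culture control replicate 3 (-0.45), isolated control replicate 2 (-0.52) or isolated control replicate 3 (-0.40) for Atp5g3.

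The higher members on control included Uqcrc2, Cox7a2l and Ndufa9, an accessory subunit that binds a nucleotide cofactor. Uqcrc2 had 79.6, 87.5 and 74 CPM in co-culture and 55.1, 52 and 66 CPM in isolated cells (log2 fold change 0.48, SE 0.13, adjusted p = 0.0166, GC-adjusted 0.56), and Ndufa9 had 71.9 ± 1.29 and 53.1 ± 6.53 CPM (0.44). For each of these 3 genes all co-culture libraries lay above all isolated libraries. All 3 calls depended on single libraries. Uqcrc2 was not called without co-culture control replicate 2 (0.43), isolated control replicate 1 (0.46) or isolated control replicate 2 (0.41), and Cox7a2l was not called without co-culture control replicate 2 (0.35), isolated control replicate 1 (0.39) or isolated control replicate 2 (0.46). Ndufa9 lost its call without isolated control replicate 1 (0.39) or isolated control replicate 2 (0.40). Over the whole set, 11 members were called without co-culture control replicate 1, 9 without co-culture control replicate 2, 11 without isolated control replicate 1 and 10 without isolated control replicate 2, against 19 with all libraries. Unlike the comparisons that involve nanotopography, log2 fold changes on control did not run with GC content (Spearman rho 0.09 over 90 members) but with mean CPM (rho 0.51) and transcript length (rho 0.37), as a description of genes that share libraries.

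The 2 co-culture comparisons share no library. Of the 54 members lower on nanotopography and the 15 lower on control, 10 were lower in both, which is 18.5% of the 54 and 66.7% of the 15. The 66.7% is close to the 60% of all 90 members that were lower on nanotopography.

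**Figure D2:**
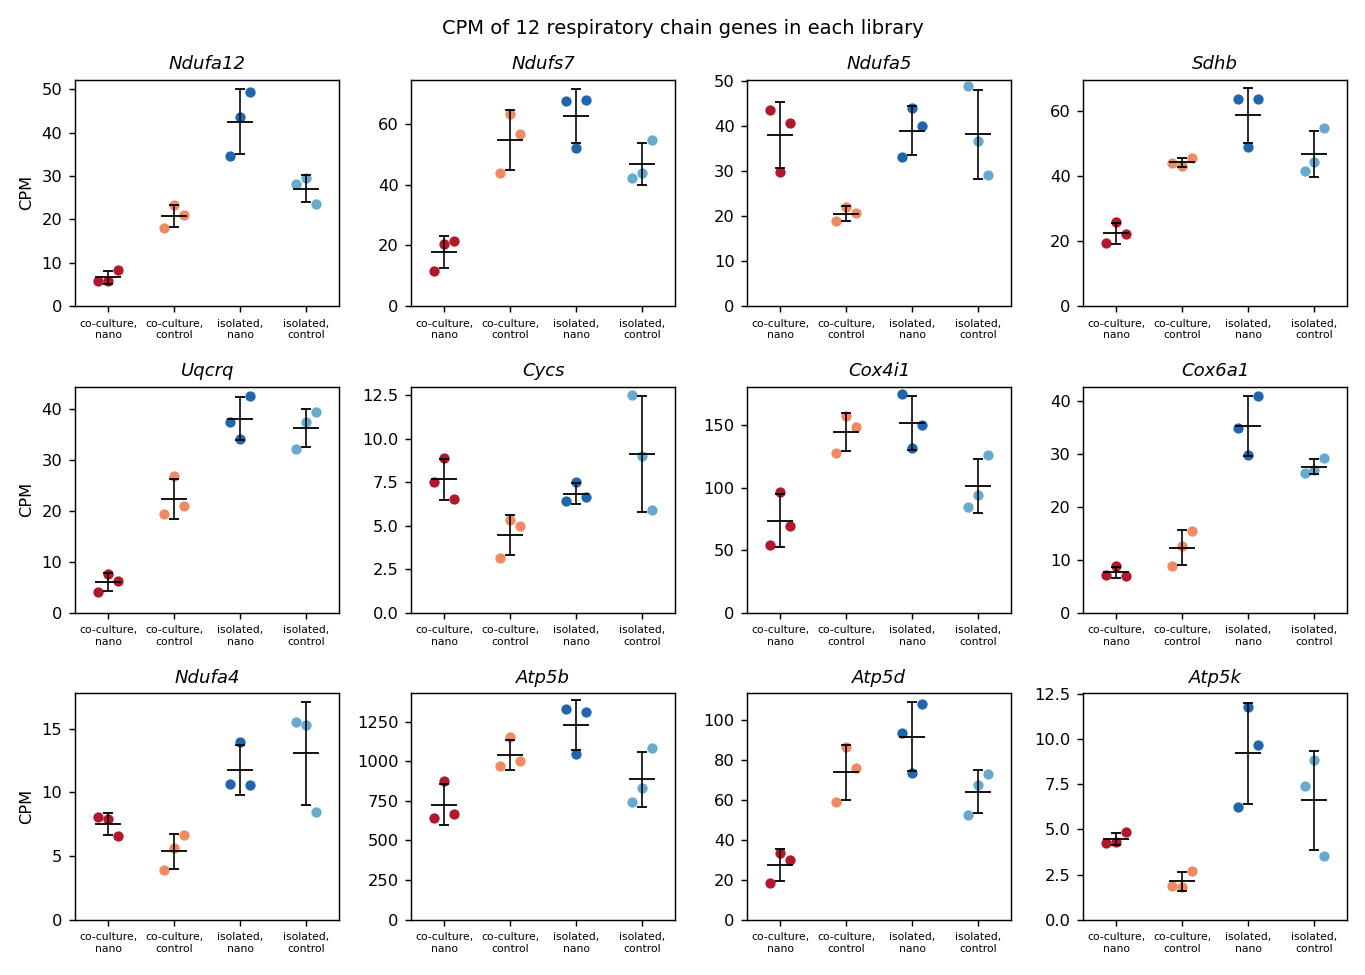
CPM on the vertical axis of 12 respiratory chain genes in each library, with co-culture and isolated groups on the horizontal axis. Points are libraries, bars are the mean ± SD (n = 3). Ndufa12, Uqcrq and Atp5d are lowest in co-culture on nanotopography, while Ndufa5, Cycs and Atp5k are lowest in control co-culture.

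The next comparison set nanotopography against control titanium within co-culture. It shares the co-culture nanotopography libraries with the first comparison and the co-culture control libraries with the comparison on control. Its calls are therefore not independent of theirs. Here 43 of 90 members were lower and 6 were higher, and the median log2 fold change was -0.40, against -0.02 over all tested genes. Lower calls took 47.8% of members and 23.3% of all tested genes, and higher calls 18.6% of all tested genes (42% in either direction). After GC adjustment 21 members were lower and 4 higher, with a median of -0.19, against 9.82% and 7.73% of all tested genes (17.5% in either direction), and 20 of the 43 stayed lower. Complex I had 18 lower of 36 subunits, complex III 3 of 8 subunits, complex IV 7 of 13 and complex V 9 of 17. Without co-culture nanotopography replicate 1, 33 members were lower and 2 higher.

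The low end was again Uqcrq, at 6 ± 1.77 CPM on nanotopography and 22.4 ± 3.94 CPM on control (log2 fold change -1.88, SE 0.20, adjusted p = 1.51e-05, GC-adjusted -1.64), followed by Ndufa12 (-1.65, GC-adjusted -1.46) and Ndufs7 (-1.62, GC-adjusted -0.78). The near-identical pseudogene of Ndufa12 had 19.4 CPM on nanotopography and 27.7 CPM on control in co-culture, so the size of the Ndufa12 value is uncertain. Ndufa4l2 had 4.82, 4.96 and 5.02 CPM on nanotopography and 12.8, 14.4 and 17.9 CPM on control (log2 fold change -1.59, SE 0.23, adjusted p = 0.000116, GC-adjusted -0.78). Atp5d and Sdhb were lower at -1.43 and -0.98 (GC-adjusted -0.56 and -0.51). These 6 genes kept their calls with any 1 library left out and after GC adjustment. Ndufaf8 was lower at -1.25, without a call after adjustment (-0.44) or without co-culture control replicate 3 (-0.98), co-culture nanotopography replicate 2 (-1.12) or co-culture nanotopography replicate 3 (-1.11). Cox6a1 (-0.66) and Cox8a (-0.54) were lower as deposited, but their sign turned after GC adjustment, to 0.13 and 0.22. The call of Cox6a1 was also lost without co-culture control replicate 2 (-0.64), co-culture control replicate 3 (-0.47), co-culture nanotopography replicate 1 (-0.60) or co-culture nanotopography replicate 3 (-0.60).

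The 6 higher genes were Atp5k, Ndufa5, Cycs, Ndufaf4, Cox7b and Atp5j. Ndufa5 had 43.6, 29.8 and 40.8 CPM on nanotopography and 18.9, 22.1 and 20.6 CPM on control in co-culture (log2 fold change 0.89, SE 0.18, adjusted p = 0.00159, GC-adjusted 1.04). Atp5k had 4.26, 4.33 and 4.87 CPM on nanotopography and 1.84, 1.82 and 2.71 CPM on control (log2 fold change 1.09, SE 0.36, adjusted p = 0.0221, GC-adjusted 1.52). Neither gene overlapped between surfaces, and both belong to the genes that were lowest on control in co-culture. The same co-culture control libraries enter both comparisons, so low values there make a gene lower in the one and higher in the other. Atp5j was at 0.50 (GC-adjusted 0.53). Cycs, Cox7b and Ndufaf4 were higher at 0.80, 0.56 and 0.60, but without a call after GC adjustment, at 0.26, 0.13 and, with the sign turned, -0.05. Leaving out 1 library ended 5 of the 6 calls, and only Ndufa5 kept its call throughout. Atp5k was not called without co-culture control replicate 1 (0.98), co-culture control replicate 2 (1.00) or co-culture nanotopography replicate 3 (1.02). Cycs was not called without co-culture control replicate 1 (0.57), co-culture nanotopography replicate 1 (0.82) or co-culture nanotopography replicate 2 (0.67), and Ndufaf4 was not called without co-culture control replicate 2 (0.41) or co-culture nanotopography replicate 1 (0.49). Cox7b lost its call without co-culture control replicate 1 (0.56), co-culture control replicate 2 (0.58), co-culture control replicate 3 (0.54), co-culture nanotopography replicate 1 (0.46) or co-culture nanotopography replicate 3 (0.51). Atp5j lost its call without co-culture control replicate 1 (0.38), co-culture control replicate 2 (0.42), co-culture nanotopography replicate 1 (0.40), co-culture nanotopography replicate 3 (0.51), isolated control replicate 2 (0.50) or isolated nanotopography replicate 3 (0.49).

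In isolated cells the called members were all higher on nanotopography. There edgeR called 10 of 90 members higher than on control titanium, limma-voom 12 and DESeq2 16, and no tool called a member lower. At an unadjusted p under 0.05, edgeR had 32 higher and 1 lower, limma-voom 35 and 1, and DESeq2 32 and 0. The median log2 fold change was 0.20, against 0.01 over all tested genes. Higher calls took 11.1% of members and 4.32% of all tested genes, and lower calls 5.39% of all tested genes (9.71% in either direction). After GC adjustment 6 members were higher (3.09% of all tested genes were higher, 2.08% lower and 5.17% called in either direction), with a median of 0.13.

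The 10 higher genes came from all 5 complexes. In complex I they included Ndufa9 (0.65), Ndufa12 (0.65) and Ndufb8 (0.51), and in complex II the anchor Sdhc (0.46). Uqcrc1 of complex III had 141, 103 and 133 CPM on nanotopography and 60.4, 66.9 and 94.9 CPM on control (log2 fold change 0.77, SE 0.18, adjusted p = 0.0226, GC-adjusted 0.53), and the assembly factor Uqcc2 was higher at 0.52. Cox8a had 80.0, 72.2 and 92.6 CPM on nanotopography and 44.1, 52.1 and 56.2 CPM on control (log2 fold change 0.68, SE 0.12, adjusted p = 0.00863), and Cox4i1 was at 0.59. Atp5a1, of complex V, had 702, 570.0 and 727 CPM on nanotopography and 386, 444 and 512 CPM on control (log2 fold change 0.58, SE 0.13, adjusted p = 0.0226). Ndufa9, Ndufa12, Ndufb8, Uqcrc1 and Atp5a1 stayed called after GC adjustment, at 0.63, 0.51, 0.40, 0.53 and 0.45. The count rested on single libraries. No member was called without isolated control replicate 1, isolated control replicate 2 or isolated nanotopography replicate 3, where 23, 26 and 22 members were higher at an unadjusted p under 0.05. Without isolated nanotopography replicate 1 the count was 3, without isolated nanotopography replicate 2 it was 19, and without isolated control replicate 3 it was 17, of which 1 was lower. Leaving out a co-culture library, which belongs to neither group compared but enters the same scaling and fit, gave 6 (any co-culture control library or co-culture nanotopography replicate 3), 16 (co-culture nanotopography replicate 1) or 15 (co-culture nanotopography replicate 2).

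Whether co-culture acted differently on the 2 surfaces was tested as an interaction, the co-culture log2 fold change on nanotopography minus that on control. It was negative for 42 members and positive for 4 of 90, with a median of -0.66, against -0.05 over all tested genes, of which 25.4% were called negative and 22.4% positive (47.8% in either direction). After GC adjustment 30 members were negative and 3 positive, with a median of -0.36, against 12% and 9.07% of all tested genes (21.1% in either direction), and 26 of the 42 stayed negative. Of the 42, 41 were lower in co-culture on nanotopography. That fold change is a term of the interaction, so this overlap is in part built in. On control, 31 of these 41 were not called, 7 were lower as well and 3 were higher. Of all 90 members, 71 were not called there, 15 were lower and 4 were higher. Without co-culture nanotopography replicate 1, 40 interactions were negative and 3 positive.

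The interaction was -2.30 for Ndufa12, whose co-culture log2 fold changes were -2.69 on nanotopography and -0.39 on control. Its near-identical pseudogene had 19.4 CPM in co-culture on nanotopography, 27.7 in control co-culture, 34.3 in isolated cells on nanotopography and 27.3 in isolated cells on control. The pseudogene held 52.9% of the CPM of both together, so the size of the Ndufa12 values is uncertain. The hypoxia-induced Ndufa4l2 differed by -2.01 (adjusted p = 0.000222, GC-adjusted -0.91), Ndufs7 by -2.04 and Atp5d by -1.94. Ndufa9 and Cox7a2l were among the genes lower on nanotopography and higher on control, with interactions of -0.86 and -0.87. Both stayed called after GC adjustment, at -0.82 and -0.72. The positive interactions were those of Cycs (1.23), Ndufaf4 (0.86), Ndufa5 (0.86) and Cox7b (0.74). Of these only Ndufa5 stayed called after GC adjustment (1.15, adjusted p = 0.00375), while Cycs was at 0.23 and Ndufaf4 and Cox7b turned sign, to -0.32 and -0.05. The interaction of Cox7b was also lost without co-culture control replicate 1 (0.75), co-culture control replicate 2 (0.77), co-culture control replicate 3 (0.73), co-culture nanotopography replicate 1 (0.64), co-culture nanotopography replicate 3 (0.70), isolated control replicate 1 (0.47), isolated control replicate 2 (0.73), isolated nanotopography replicate 1 (0.60) or isolated nanotopography replicate 3 (0.80).

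Summed over the members of each complex, CPM were lowest in co-culture on nanotopography and highest in isolated cells on nanotopography for complexes I to V. Complex I subunits summed to 1149 ± 78.9 CPM in co-culture on nanotopography, 1462 ± 107 in control co-culture, 1760.3 ± 96.9 in isolated cells on nanotopography and 1433 ± 44 in isolated cells on control (SD, n = 3 each). Complex V, in which Atp5b and Atp5a1 hold most of the counts, had 1578 ± 220.1, 2169.6 ± 197, 2546 ± 265 and 1872 ± 268 CPM in that order. Complex IV had 335 ± 26.2, 474 ± 34.2, 575 ± 22.9 and 478 ± 9.43 CPM. The complex I assembly factors differed from the subunits, at 79 ± 3.89, 71 ± 2.05, 77.8 ± 3.79 and 77.6 ± 4.88 CPM, so that co-culture on nanotopography was not the low group for them. No test was made on these sums, and they were not GC-adjusted. GC-rich against GC-poor genes, as a difference of median log2 deviations from each gene's mean, were at -0.999 ± 0.394, 0.208 ± 0.194, 0.722 ± 0.337 and 0.0701 ± 0.2455 in that order of groups. The lowest and the highest group of that GC measure are the same as those of the sums for complexes I to V. Its part in the sums was not tested.

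**Figure D3:**
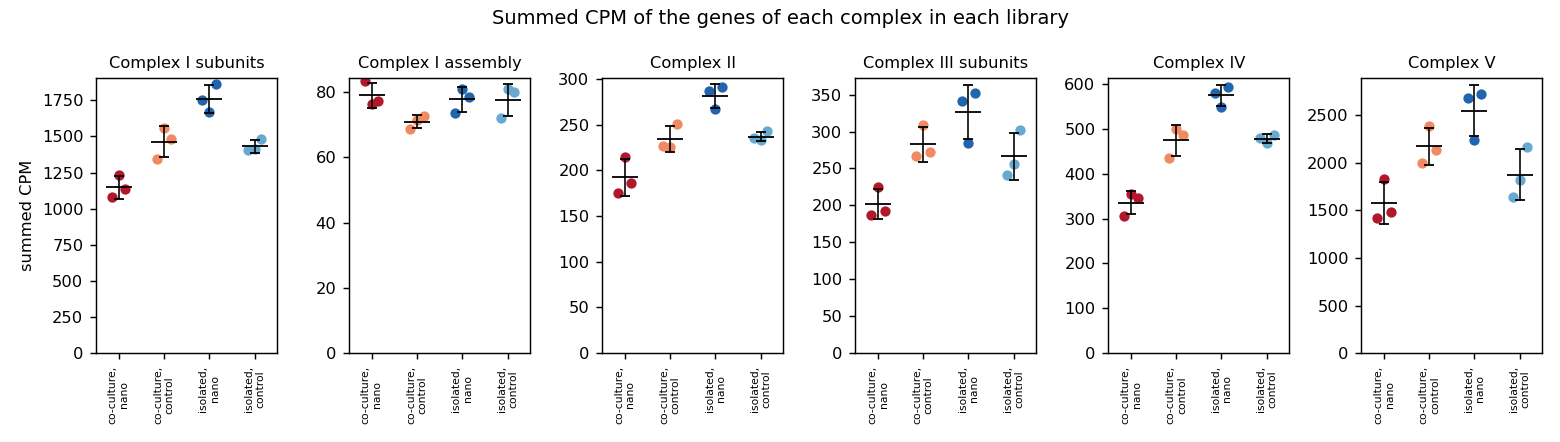
Summed CPM, not GC-adjusted, of the genes of each complex (vertical axis, a scale for each panel from 0) in the 4 groups. Points are libraries and bars the mean ± SD (n = 3); co-culture on nanotopography is the lowest group in 5 panels, and the complex I assembly factors sit between 68.7 and 83.4 CPM in all libraries.

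The members' fold changes followed the GC content of their transcripts in each comparison that involves nanotopography. Over 90 members, Spearman's rho between GC content and log2 fold change was -0.74 for co-culture on nanotopography, -0.68 for nanotopography in co-culture and 0.61 for nanotopography in isolated cells. After GC adjustment the first was -0.15. Members had a median GC content of 51.5% and a median transcript length of 801.5 bases, against 49.9% and 2543 bases over all tested genes. Members were also set beside all tested genes of like GC content, and beside the tested genes among these with transcripts under 1 kb, which are nearer to the members in length. Between 52% and 56% GC, 20 of 22 members were lower in co-culture on nanotopography (90.9%), with a median of -0.94, against 50.6% and -0.44 over 2729 tested genes in that bin. Above 56%, 16 of 17 were lower with a median of -1.71, against 76.1% and -0.95 over 2385 genes, and between 48% and 52%, 15 of 31 (48.4%) with -0.41, against 22.2% and -0.04 over 2893 genes. Below 48% GC, 3 of 20 were lower (15%) and the median was 0.15, against 4.12% and 0.59 over 5333 genes. For genes under 1 kb the medians were 0.32, -0.27, -0.65 and -1.33 from the lowest to the highest bin, with 8.9%, 27.3%, 53% and 75.2% lower, so in all 4 bins their medians lay nearer to the members' than those of all tested genes did. In all 4 bins the members' median was the lowest of the 3, and after GC adjustment the members' medians were -0.45, -0.28, -0.42 and -0.57 from the lowest to the highest bin, against 0.00, -0.01, 0.00 and -0.03 for all tested genes and 0.01, -0.02, -0.01 and -0.27 for those under 1 kb.

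**Figure D4:**
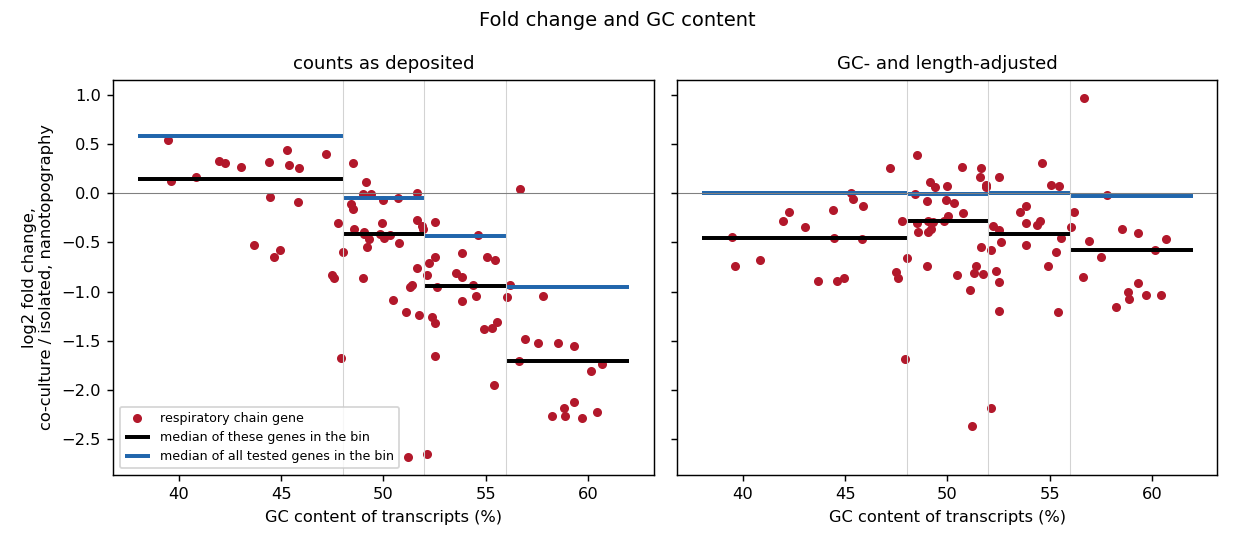
GC content of transcripts (horizontal axis, %) against log2 fold change of co-culture over isolated cells on nanotopography (vertical axis), from the counts as deposited at left and GC-adjusted at right. Points are respiratory chain genes, black bars their medians in 4 GC bins and blue bars the medians of all tested genes; the black bar is below the blue bar in each bin of both panels.

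Respiratory chain genes have many processed pseudogenes, which can share reads with their parents. Of the 90 tested members, 24 matched a pseudogene transcript over at least 100 bases at 95% identity or more, and for 16 the pseudogenes held over 10% of the summed CPM. Among the 66 tested members with no match, 43 were lower and 1 was higher in co-culture on nanotopography (median -0.79). Among the 24 with a match, 11 were lower (median -0.52). Atp5h, a peripheral stalk subunit, had 7.55 ± 1.36 CPM in co-culture on nanotopography and 10.3 ± 1.67 CPM in isolated cells, against 49.4 ± 3.4 and 54.8 ± 7.76 CPM on its 4 matching pseudogenes, and its values are uncertain for that reason. When pseudogene counts were added to their parents, an alternative chosen after seeing the data, Cox7a2l in co-culture on nanotopography was the 1 named call that was lost (-0.17, adjusted p = 0.308). Exons of 32 members share bases with another annotated gene, and in Ndufaf2, Atp5o, Ndufb6 and Ndufa13 over 20% of exon bases are shared. Whether counting used strand is not given in the sources used here, so reads of these overlaps cannot be told apart.

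Genes outside the naming rule that belong to the same machinery were set beside the members. Of 14 nuclear subunits and partners, 8 were lower and 2 higher in co-culture on nanotopography (3 lower on control), with a median of -0.61. Lower calls took 57.1% of them and 30.4% of all tested genes, and calls in either direction 71.4% and 59.2%. On control lower calls took 21.4% of them and 8.72% of all tested genes. After GC adjustment 5 were lower (35.7%, against 20.3% of all tested genes) and none was higher, with a median of -0.45. Cyc1, the cytochrome c1 subunit of complex III, had 12 ± 1.53 CPM in co-culture and 33.6 ± 5.54 CPM in isolated cells on nanotopography (-1.48, GC-adjusted -0.79). Atpif1, the inhibitor of complex V, was lower in co-culture on nanotopography (-1.36, GC-adjusted -0.90) and higher on nanotopography in isolated cells (0.75, GC-adjusted 0.56). Tmem70, a complex V assembly factor, was higher in co-culture on nanotopography (0.72, GC-adjusted 0.29). The complex IV assembly and copper list had 5 lower and 2 higher of 21 tested (4 and 3 after GC adjustment) and a median of -0.06, so its 33.3% called lay below the 59.2% of all tested genes. Its called genes include Cox10, which makes heme A precursors (-1.47, GC-adjusted -0.97), and Lrpprc, which stabilises mitochondrial mRNA (0.61). Of 16 genes of the citric acid cycle and pyruvate dehydrogenase, 6 were lower and 3 higher on nanotopography (1 and 1 on control), including Suclg1 (-1.31) and Mdh2 (-0.97, GC-adjusted -0.30). Their shares on nanotopography, 37.5% lower and 56.25% called, stood near the 30.4% and 59.2% of all tested genes. On control their shares, 6.25% lower and 12.5% called, lay below the 8.72% and 19.7% of all tested genes. After GC adjustment 8 of the 16 were lower on nanotopography (50%, against 20.3% of all tested genes) and none was higher.

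Of the 13 subunits encoded by mitochondrial DNA 8 were tested, and their direction depended on the GC adjustment. In co-culture on nanotopography 1 was higher, mt-Co1 (7332 ± 1181 CPM in co-culture, 5602 ± 98.8 CPM in isolated cells; 0.39), and none was lower, whereas after GC adjustment 7 were lower, none was higher, and mt-Co1 had the other sign (-0.50). Of all tested genes, 28.7% were higher and 30.4% lower there, and 18.7% and 20.3% after adjustment. On control 4 were lower (50%, against 8.72% of all tested genes), mt-Nd2, mt-Nd3, mt-Nd6 and mt-Cytb. There mt-Cytb was at 284 ± 154 CPM in co-culture and 619 ± 194 CPM in isolated cells (-1.13, GC-adjusted -0.83). Summed over the 13 genes, the level was 12171 ± 2934 CPM in co-culture on nanotopography, 9054 ± 799 in control co-culture, 10446 ± 1261 in isolated cells on nanotopography and 10892 ± 540.3 in isolated cells on control (SD, n = 3 each). The highest value, 15553 CPM, was that of co-culture nanotopography replicate 1, the library with the largest share of mitochondrial ribosomal RNA.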

How the data were processed

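Gene counts for 12 libraries were deposited by the authors as raw counts per gene. Per the submitters' processing notes, the tools were cutadapt, FastQC 0.63, STAR 2.4, HTSeq and DESeq2 with build mm10; their parameters, strand setting and annotation release are not given in the sources used here. Symbols and transcript GC content and length came from GENCODE M21. The 52654 genes listed for every library were used, which hold at least 99.9% of each library's listed counts. The rule gave 97 genes in the files and 98 in the annotation, the other being a second Atp5o gene.

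Counts were fitted with edgeR 4.0.16 (quasi-likelihood, TMM scaling, filterByExpr, 4 group means) in R 4.3.3, with Benjamini-Hochberg adjustment over 13340 tested genes and a threshold of 0.05. CPM use TMM-scaled library sizes. The biological coefficient of variation was 12.3%. GC-adjusted values used offsets from a loess curve (span 0.3) over GC content and then length. DESeq2 1.42.0, limma-voom (limma 3.58.1), other scalings and filters, the replicate number as a block and fits without 1 library were alternatives. The steps were tested on simulated data.

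Members and lists were chosen with earlier results of these data known. Genes named were core subunits and isoform pairs, the called members at each end of each complex without overlap, and all members of counts of 5 or fewer; Ndufb5 was named after its values were seen. A gene that the rule names is not reported here.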

Additional observations from a re-analysis of the deposited data

Results flagged for a closer look

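For 30 named members the co-culture effect differed between the 2 surfaces by the interaction test (edgeR, adjusted p under 0.05 over all tested genes). Named members were in part picked for calls in the other comparisons, so their number cannot be set against a share of all genes. Of all 90 tested members 46 were called in that test (51.1%), near the 47.8% of all tested genes. The value given is the co-culture log2 fold change on nanotopography minus that on control. In complex I the differences were -2.30 for Ndufa12, -2.04 for Ndufs7, -2.04 for Ndufaf8, -1.23 for Ndufs8, -1.20 for Ndufv1, -0.99 for Ndufs3, -0.98 for Ndufb8 and -0.86 for Ndufa9, with 0.86 for both Ndufa5 and Ndufaf4. In complex II they were -1.31 for Sdhb and -1.09 for Sdhc. In complex III they were -1.95 for Uqcrq, -1.72 for Uqcrc1, -1.54 for Uqcc2 and -1.005 for Uqcc3, and Cycs had 1.23. In complex IV they were -2.01 for Ndufa4l2, -1.55 for Cox4i1, -1.23 for Cox8a, -1.08 for Cox5b, -1.01 for Cox6a1, -0.87 for Cox7a2l and 0.74 for Cox7b. In complex V they were -1.94 for Atp5d, -1.27 for Atp5g1, -1.02 for Atp5a1, -0.99 for Atp5b, -0.78 for Atp5c1 and -0.60 for Atp5g3. After GC adjustment the calls of Ndufaf8, Ndufs3, Ndufs8, Ndufv1, Uqcc3, Cox6a1, Cox8a, Atp5g3, Ndufaf4, Cox7b and Cycs were lost. Cox6a1, Ndufaf4 and Cox7b also turned sign. Groups hold 3 libraries, so single libraries were not tested as outliers.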

How the results depend on the processing

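In co-culture on nanotopography and in the interaction, the count of called members stayed within 1.5 times the main count under every alternative run, at 50 to 59 and 42 to 49 with 1 library left out. The other comparisons moved. GC adjustment gave 33 called members in co-culture on control, 25 on nanotopography within co-culture and 6 on nanotopography in isolated cells, and 30, 23 and 4 with GC adjustment and the replicate block together. Without the low-count filter 21 members were called in isolated cells, and 16 by DESeq2. With 1 library left out the counts were 9 to 27 for co-culture on control, 35 to 50 for nanotopography within co-culture and 0 to 19 for nanotopography in isolated cells. In protein-coding genes alone, co-culture on nanotopography had 7 higher and 51 lower members.

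Among the calls of named members, signs turned for 4 genes under GC adjustment (the value with the block as well comes second of each pair): Cox6a1 in nanotopography within co-culture (0.13, 0.13) and in the interaction (0.0888, 0.0966), Cox8a in nanotopography within co-culture (0.22, 0.22), Cox7b in the interaction (-0.0548, -0.0593), and Ndufaf4 in co-culture on nanotopography (-0.45, -0.46), nanotopography within co-culture (-0.0525, -0.0411) and the interaction (-0.32, -0.31). The cause was not tested. Of 119 calls of named members, GC adjustment kept 74, ended 38 and turned 7. Of the other members called lower in co-culture on nanotopography, picked out after their values were seen, Ndufb10, Ndufv3 and Atp5e also turned sign, to 0.08, 0.09 and 0.32, as did the interaction of Ndufb10, to 0.12.

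Same-numbered libraries deviated together (r over 0.1) in 6 of 18 pairs and different-numbered ones in 10 of 36. Because deviations were taken from means of only 3 libraries, these counts cannot decide whether libraries of the same number share a batch. The replicate block gave 54, 19, 48, 11 and 44 called members for co-culture on nanotopography, co-culture on control, nanotopography in co-culture, nanotopography in isolated cells and the interaction. Fitting only the groups compared was not possible for the interaction. Depth limits the low members: 7 of 97 could not be tested.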

Other observations

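Regulators of respiration outside the chain were counted in the same way. Of 11 oxygen-responsive genes, 9 were higher and none was lower in co-culture on control (9 and 0 after GC adjustment), where 10.9% of all tested genes were higher, and 6 were higher and 1 lower in co-culture on nanotopography (5 and 0 after adjustment), where 28.7% of all tested genes were higher. Hif1a, the oxygen-regulated transcription factor, had log2 fold changes of 1.27 on nanotopography (GC-adjusted 0.49) and 0.61 on control. Egln1, an oxygen sensor of that factor, had 0.39 (GC-adjusted 1.02) and 0.92, and Pdk1, which limits pyruvate entry into the citric acid cycle, had 0.35 (GC-adjusted -0.07, with the sign turned) and 0.49. The mitophagy receptor Bnip3 had 0.54 and 0.61.

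Of 12 tested regulators of mitochondrial biogenesis, 4 were higher and 4 lower in co-culture on nanotopography (2 and 2 after GC adjustment), shares of 33.3% each that are near those of all tested genes (28.7% and 30.4%). On control 1 was called, Ppargc1b, which was higher (1.40). That is 8.33% of the list, against 10.9% of all tested genes higher there. Polrmt, the mitochondrial RNA polymerase, was at -1.74 (GC-adjusted -0.62) and Gabpa, the DNA-binding part of GABP, at 0.96 (GC-adjusted 0.24, not called). Ppargc1a had no count in any library. Of 13 tested genes of mitochondrial mass, 2 were higher and 3 lower on nanotopography (2 and 4 after GC adjustment), a called share of 38.5% against 59.2% of all tested genes. On control 3 were higher and 1 lower, a called share of 30.8% against 19.7% of all tested genes (10.9% higher and 8.72% lower). The mitochondrial chaperone Hspa9 was higher in both (1.42 and 1.34), and the import pore Tomm40 was lower on nanotopography (-1.93, GC-adjusted -0.67). Of 8 osteoblast markers, 4 were lower and 1 higher in co-culture on nanotopography (1 and 1 after adjustment), and 3 were lower on control, where 30.4% and 8.72% of all tested genes were lower. Col1a1 was at -0.95 on nanotopography and -0.10 after GC adjustment, where it was not called.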
